A study of Mus musculus with 30 samples.

Results

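The RNA described here came from mouse 8-cell embryos of a BDF1 x BDF1 cross after a control knockdown. The embryos were grown in KSOM, a medium for preimplantation embryos. Both libraries labelled as control 8-cell RNA were taken, 2 of the 30 samples of a series on YY1 and nucleosome remodeling, with all 49585 rows of the deposited expression table. Total RNA was used, with a stranded SMART-Seq kit that makes libraries from very small inputs. The labels name no control siRNA sequence, number of embryos or separate collections, so the spread between replicates 1 and 2 may be technical. The remaining 28 samples were not analysed here. Where a pair of values is given below, replicate 1 comes first, and errors are SD with n = 2. With a single group there is nothing to test, so the values are descriptions and carry no p-values.

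The 8-cell embryo lies between activation of the zygotic genome and formation of the blastocyst. Its cells, the blastomeres, flatten against each other (compaction) and gain an outer and an inner side (polarity), after which outer cells turn toward the trophectoderm, the future placental epithelium, and inner cells toward the inner cell mass. The inner cell mass later divides into pluripotent epiblast and primitive endoderm. Much RNA inherited from the oocyte has been degraded by this stage, and the embryo feeds on pyruvate and lactate more than on glucose.

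The values are FPKM, fragments per kilobase of gene length scaled to the library's total, so they can be compared between genes per length. The steps between low values gave totals of 34429515 and 31405476 fragments. In a gene of 1 kb, 3 fragments correspond to 0.0871 and 0.0955 FPKM. In the libraries 23329 and 23802 rows were above 0, and 23125 were 0 in both. A row is called detected below when it reached 1 FPKM in both libraries. This held for 10939 rows (22.1% of all), of which 8004 were nuclear protein-coding genes (37.6% of 21266). That last share is the background for the counts in lists of protein-coding genes below. The median over all rows was 0.0153 FPKM and that over nuclear protein-coding rows was 0.343 FPKM. At higher levels 4354 rows reached 10 FPKM in both, 735 reached 100 FPKM and 46 reached 1000 FPKM. In embryos made of several blastomeres, fewer cells expressing a gene and less RNA per cell cannot be told apart.

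Small structural RNAs and protein-coding messages shared the RNA very differently by molecule and by fragment. The 7SL RNA, the scaffold of the signal recognition particle that brings ribosomes to the endoplasmic reticulum, held 36.9% and 35.6% of the summed FPKM in its 3 rows, but 9.31% and 8.46% of the fragments. The Rn7s2 row held 4.65% and 4.24% of all fragments, and the Rn7s1 row held 4.51% and 4.07%. How fragments matching both of these 7SL rows were counted was not stated. If they were counted at each row, the 7SL shares are too high, so these shares are uncertain. Nuclear protein-coding genes held 24.9% and 26.3% of the summed FPKM and 67.5% and 69.4% of the fragments. The FPKM share weighs each RNA per length, which raises short RNAs, while the fragment share shows where the sequencing went. The widest 95% Wilson interval of a class's fragment share reached 0.0161 percentage points to either side, less than the distance between the libraries for these 2 classes. Such intervals cover counting error only, since PCR copies are not independent molecules. Pseudogene rows held 14.5% and 15.6% of the summed FPKM and 8.01% and 8.21% of the fragments. Rows with a predicted or clone name and no RefSeq class held 6.29% and 6.59% of FPKM and 2.39% and 3.35% of fragments. Of the 100 highest rows 31 were pseudogenes and 42 had predicted or clone names, counts that can overlap. The highest predicted rows were Gm24447 at 7181 and 6550 FPKM and Gm24187 at 6299 and 7305 FPKM.

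**Figure D1:**
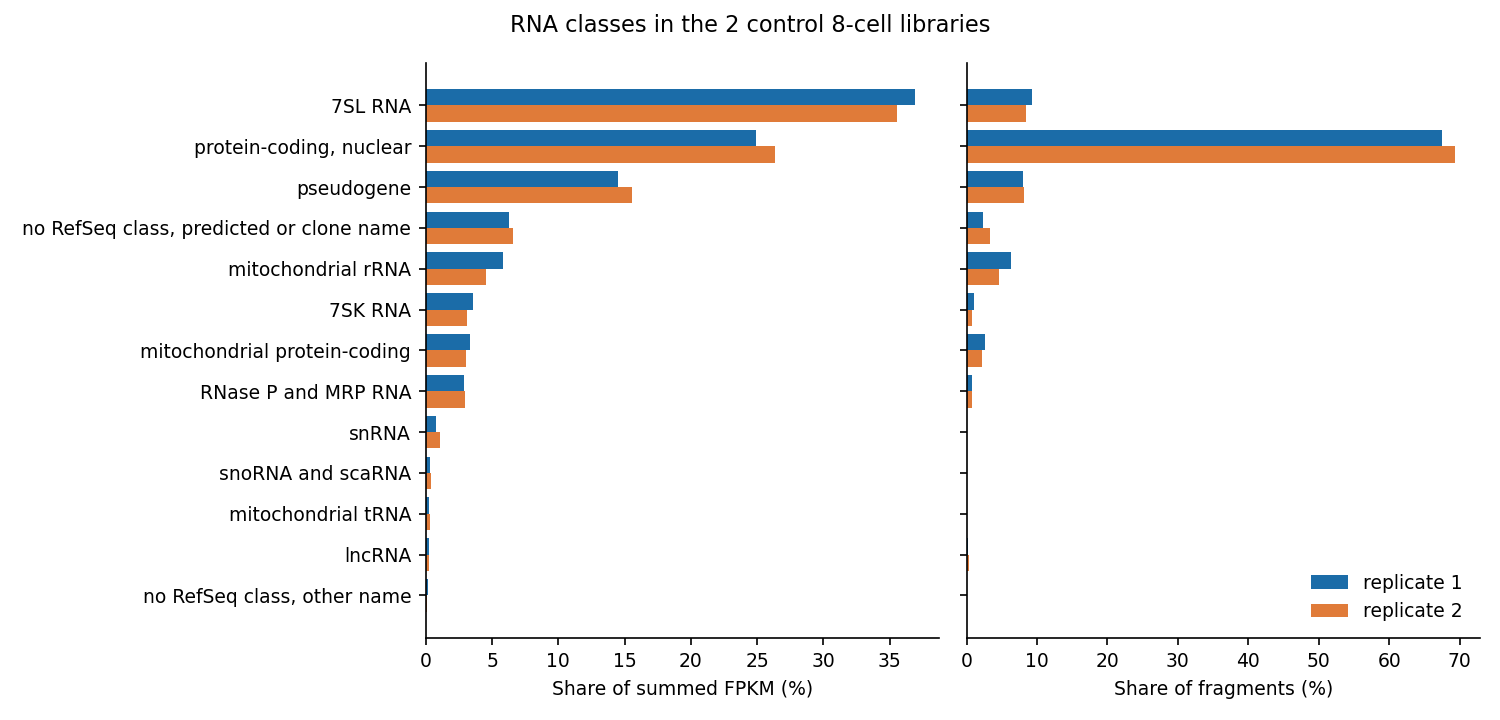
Share of each RNA class in the summed FPKM (left, percent) and in the fragments (right, percent), one bar per control library, for classes above 0.1% of FPKM on average. 7SL RNA leads by FPKM with 36.9% and 35.6%, and nuclear protein-coding genes lead by fragments with 67.5% and 69.4%. How fragments matching several 7SL rows were counted was not stated, so the 7SL shares are uncertain.

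The 6 highest rows were all noncoding RNAs, among them the 2 mitochondrial rRNAs described below. Rn7s2 and Rn7s1, the 7SL genes on chromosome 12 of GRCm38.p6 (69361183 to 69361481 and 69159295 to 69159593), stood at 155009 and 141368 FPKM and at 150222 and 135801 FPKM. A further row named as 7SL, Rn7s6, had 5158 and 4887 FPKM. Rn7sk, the 7SK RNA that holds the elongation factor P-TEFb inactive, followed with 30244 and 24621 FPKM. Rpph1, the RNA of the tRNA-processing ribozyme RNase P, had 22035 and 21224 FPKM, and Rmrp, the related RNA of RNase MRP, had 1469.6 and 1155 FPKM. The 7SL, 7SK, RNase P and RNase MRP RNAs are made by RNA polymerase III, and each of these rows was within 2-fold between the libraries. Smaller polymerase III products were lower, with the vault RNA Vaultrc5 at 442 and 512 FPKM and the Y RNA Rny3 at 118 and 186 FPKM. Apart from this group, Terc, the template RNA of telomerase, had 49 and 40.9 FPKM.

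Rows classed or named as RNA of the cytosolic ribosome were at or near 0. All 59 rows that RefSeq classes as nuclear rRNA were listed at 0 in both libraries, and Rn18s-rs5, an 18S-related row, had 0 and 0.0129 FPKM. The treatment of rRNA in the library and in mapping was not stated, and predicted rows with no RefSeq class were not searched for such RNA. The rRNA of mitochondria was in contrast abundant, with mt-Rnr2, the large subunit rRNA, at 26830.5 and 18842 FPKM and mt-Rnr1, the small subunit rRNA, at 22050.2 and 17003 FPKM. Together these 2 held 6.35% and 4.60% of the fragments, and both were higher in replicate 1.

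All 13 mitochondrial protein genes were detected, between 743 and 575 FPKM for mt-Co3 and 3669 and 3108 FPKM for mt-Cytb. They encode the core subunits of the respiratory chain, and they held 2.61% and 2.26% of the fragments. Of the 30 highest rows with a proper gene name 13 were mitochondrial, both rRNAs included. Levels differed between the libraries most for mt-Atp6, a subunit of ATP synthase, with 3692 and 2363 FPKM, and mt-Nd1, a subunit of complex I, with 3345 and 2348 FPKM. All 22 mitochondrial tRNA rows were detected too, led by mt-Tp at 538 and 589.8 FPKM and mt-Tg at 338 and 612 FPKM, and 19 of the 22 were higher in replicate 2. A row beside these, Gm10925, a pseudogene on chromosome 1 (24613971 to 24614651), had 4686 and 2919.6 FPKM, and Gm10222, also on chromosome 1 (24612404 to 24612700), had 1617 and 1575 FPKM. This stretch of chromosome 1 is known as a nuclear copy of mitochondrial DNA, so these reads cannot be assigned with certainty.

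Among named spliceosomal RNAs, 9 of 22 rows were detected. The U2 row Rnu2-10 had 290.3 and 365 FPKM and the U1 row Rnu1b1 had 231 and 282 FPKM, while Rnu12 of the minor spliceosome had 25.4 and 34.4 FPKM. All 9 were higher in replicate 2. Over the whole class of small nuclear RNAs, predicted names included, 171 of 931 rows were detected (18.4%, against 22.1% of all rows). The highest of that class was Gm24924 at 441 and 515 FPKM. Of 140 named small nucleolar RNAs 47 were detected (33.6%), with Snord15a at 242 and 319 FPKM, Snord17 at 134 and 187 FPKM and Snora21 at 91 and 92.3 FPKM. Small Cajal body RNAs, which guide modification of the spliceosomal RNAs, were detected in 7 of 9 rows, led by Scarna6 at 129 and 106 FPKM. Over the whole class of small nucleolar and Cajal body RNAs, predicted names included, 124 of 1116 rows were detected (11.1%, against 22.1% of all rows). Very short rows reach 1 FPKM with few fragments. The mitochondrial tRNA row mt-Ts2, for example, had 4.43 and 4.86 FPKM from 9 and 9 fragments. MicroRNA rows were detected in 23 of 1195, which says little about mature microRNAs, since they are shorter than the inserts of such a library. Mir684-1 was the highest at 84.4 and 52.9 FPKM.

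Long noncoding RNAs were a small class. RefSeq's lncRNA rows were detected in 171 of 3385 (5.05%), and they held 0.276% and 0.367% of the fragments. Malat1, a nuclear speckle RNA, had 45.2 and 83.5 FPKM, and Tug1 had 6.85 and 9.13 FPKM. Neat1, the scaffold of paraspeckles, stood at 0.583 and 0.227 FPKM and Meg3, an imprinted transcript, at 0.0257 and 0.0176 FPKM. The host genes of small nucleolar RNAs were detected in 12 of 19 cases, with Snhg1 at 22.4 and 36.8 FPKM and Gas5 at 20.3 and 29.6 FPKM. Of 30 Platr transcripts, named for their association with pluripotency, 9 were detected, and the highest was Platr17 at 6.01 and 8.84 FPKM.

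Protein-coding RNA was spread over many genes. The 10 highest nuclear protein-coding genes held 6.99% and 6.84% of that class's FPKM and the 100 highest held 28.1% and 27.0%, against 51.1% and 48.1% for the 10 highest of all rows. At the top stood Dppa3, also called Stella, a maternal factor that protects the maternal genome from demethylation, on chromosome 6 from 122626424 to 122630271. It had 2099 and 1985 FPKM, a mean of 2042 ± 80.6. Rplp1, a stalk protein of the large ribosomal subunit, had 2130.1 and 1772 FPKM, and the chaperone Hsp90ab1 had 1742 and 2109.5 FPKM. Next came Rpl41 at 1326 and 1530.1 FPKM and Ptma, the small acidic chromatin-associated protein prothymosin alpha, at 1280.1 and 1173 FPKM. Calcoco2, an autophagy receptor, had 1020.2 and 1082 FPKM. The 50 highest protein-coding genes held 16 histone cluster genes, 12 ribosomal protein genes, 3 heat shock genes and 2 translation factors. Others among the 50 were Odc1 at 882 and 948 FPKM, the first enzyme of polyamine synthesis, Npm1 at 738 and 783 FPKM, a nucleolar chaperone, and Ybx1 at 692 and 756 FPKM, an RNA-binding protein. These 3, like other genes outside the naming rule in the paragraphs on promoters, were named after their values were seen.

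Replication-dependent histone genes were among the strongest families per length. These genes are expressed in S phase, and their messages end in a stem-loop instead of a poly(A) tail. Of 70 rows 59 were detected (84.3%, against 37.6% of nuclear protein-coding rows and 22.1% of all rows). Of these, 53 had a mean above 100 FPKM, and the median member of the list had 208 FPKM. Hist1h2ah led with 1389 and 1027 FPKM, followed by Hist1h2ai with 1251 and 777 FPKM and Hist1h2ao with 1149 and 621 FPKM. The linker histone gene Hist1h1a had 622 and 532 FPKM, and the testis form Hist1h1t had 2.11 and 0.218 FPKM. Of the 60 rows with a mean of at least 1 FPKM, 58 were higher in replicate 1, with a median log2 ratio of 0.45, whereas over all 11955 such rows 5213 were higher in replicate 1 and the median was -0.06. The family's share of the summed FPKM was 2.73% and 2.11%. Mitochondrial rRNA was higher in replicate 1 as well (5.81% and 4.52% of FPKM), and its part in the histone difference was not tested. Histone genes are close copies of each other, so single members are uncertain. The oocyte linker histone H1foo, which somatic linker histones replace in early cleavage, stood at 6.58 and 7.61 FPKM, and the replication-independent histone gene H3f3b at 166 and 181 FPKM.

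Promoter sequences for a set of these genes show how different the starts of abundant 8-cell messages are. Each run holds the 120 bases before the RefSeq start on GRCm38.p6, read toward the gene. Capitals mark the TATA box as TATAAA and the CCAAT box, which reads ATTGG on the other strand. They also mark the GC box of SP1-type factors, read here as GGGCGG on one strand or as its complement on the other. The runs cover histone genes (chr13:22035644-22035763, minus strand for Hist1h2ah, chr13:21716292-21716411, plus strand for Hist1h2ai, chr13:23581448-23581567, plus strand for Hist1h4d), genes of growth (Ybx1 at chr4:119294514-119294633, minus strand, Odc1 at chr12:17544753-17544872, plus strand) and a cleavage-stage gene, Tdpoz4 at chr3:93796278-93796397, plus strand.
Hist1h2ah: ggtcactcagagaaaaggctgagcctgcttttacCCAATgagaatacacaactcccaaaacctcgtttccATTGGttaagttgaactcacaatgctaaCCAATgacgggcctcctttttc
Hist1h2ai: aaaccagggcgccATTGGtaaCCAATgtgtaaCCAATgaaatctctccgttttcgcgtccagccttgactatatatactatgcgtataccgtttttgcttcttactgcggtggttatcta
Hist1h4d: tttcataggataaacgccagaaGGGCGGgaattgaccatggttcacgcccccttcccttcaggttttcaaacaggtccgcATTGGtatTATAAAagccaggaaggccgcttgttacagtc
Ybx1: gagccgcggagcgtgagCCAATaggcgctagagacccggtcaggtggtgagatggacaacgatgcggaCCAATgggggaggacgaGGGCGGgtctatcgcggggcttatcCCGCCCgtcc
Odc1: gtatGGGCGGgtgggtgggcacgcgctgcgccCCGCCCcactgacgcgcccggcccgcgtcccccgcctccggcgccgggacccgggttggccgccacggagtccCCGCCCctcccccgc
Tdpoz4: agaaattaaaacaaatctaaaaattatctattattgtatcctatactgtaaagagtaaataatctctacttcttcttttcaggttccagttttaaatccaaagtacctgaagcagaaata

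In these windows Hist1h2ah and Hist1h2ai each held 3 CCAAT elements on either strand, and Hist1h4d, at 753 and 484 FPKM, held a TATAAA element 32 bases before the start with a CCAAT element 40 bases and a GGGCGG element 98 bases before the start. Ybx1 carried 2 CCAAT and 2 GGGCGG elements, Odc1 carried 3 GGGCGG elements, and the window of Tdpoz4 held none of these letters. Over the family, 61 of 66 histone cluster genes classed as protein-coding had a promoter in the RefSeq table. CCAAT occurred in 82.0% of them on either strand in the 250 bases before the start, against 34.5% of all 27025 promoters of the table. TATAAA, searched on both strands in the 50 bases before the start, occurred in 29.5%, against 3.78%. A match describes letters only and shows no factor bound.

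Genes for protein synthesis were detected almost without exception. Cytosolic ribosomal protein genes were detected in 86 of 88 cases with a median of 165 FPKM. The exceptions were Rpl3l, a muscle paralog, at 0.442 and 0.872 FPKM and Rps12l1, listed at 0. Rpl8 had 1141 and 1226 FPKM and Rps26 had 1142 and 1061 FPKM, while Rpl13a had 22.6 and 28.2 FPKM and Rpl35a 25.9 and 28.5 FPKM, which gives a wide spread for proteins that ribosomes hold in mostly equal numbers. Ribosomal protein pseudogenes were detected in 180 of 276 rows and held more of the summed FPKM than the genes, 3.06% and 3.24% against 2.62% and 2.85%. By fragments the order was the opposite, with 1.45% and 1.45% for the pseudogenes and 2.91% and 3.05% for the genes. The pseudogene Rpsa-ps10 stood at 1242 and 1179.5 FPKM. How fragments were divided among such copies was not stated, so neither set's level is certain. Translation factors were detected in 60 of 66 cases, with the elongation factor Eef2 at 596 and 575 FPKM and the initiation factor Eif3a at 441 and 503 FPKM. Eef1a2, the elongation factor of muscle and neurons, was listed at 0.

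Most proteasome, splicing and importin genes were detected, and the heat shock and chaperonin list was led by a few abundant members. Of its 82 genes 55 were detected (67.1%, against 37.6% of nuclear protein-coding rows), with a median of 5.05 FPKM. Hsp90aa1 had 1025 and 1262 FPKM and Hspa8, the constitutive HSP70, had 939.9 and 1089 FPKM, while the inducible Hspa1a stood at 3.01 and 3.82 FPKM. Proteasome subunits were detected in 35 of 39 cases, led by Psmc1 at 155 and 181 FPKM. The 4 not detected were the immunoproteasome subunits Psmb8 (0 and 0 FPKM) and Psmb9 (0.206 and 0.0261 FPKM), the thymus subunit Psmb11 (0.123 and 0.06 FPKM) and the testis subunit Psma8 (0 and 0.094 FPKM). SR and hnRNP splicing proteins were detected in 30 of 31 cases, with Hnrnpa1 at 494 and 558 FPKM and Hnrnpab at 374 and 415 FPKM. Importins, a list added after the values were seen, were detected in 14 of 14 cases, with Ipo5 at 267 and 237 FPKM and Kpna2 at 173 and 165 FPKM.

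**Figure D2:**
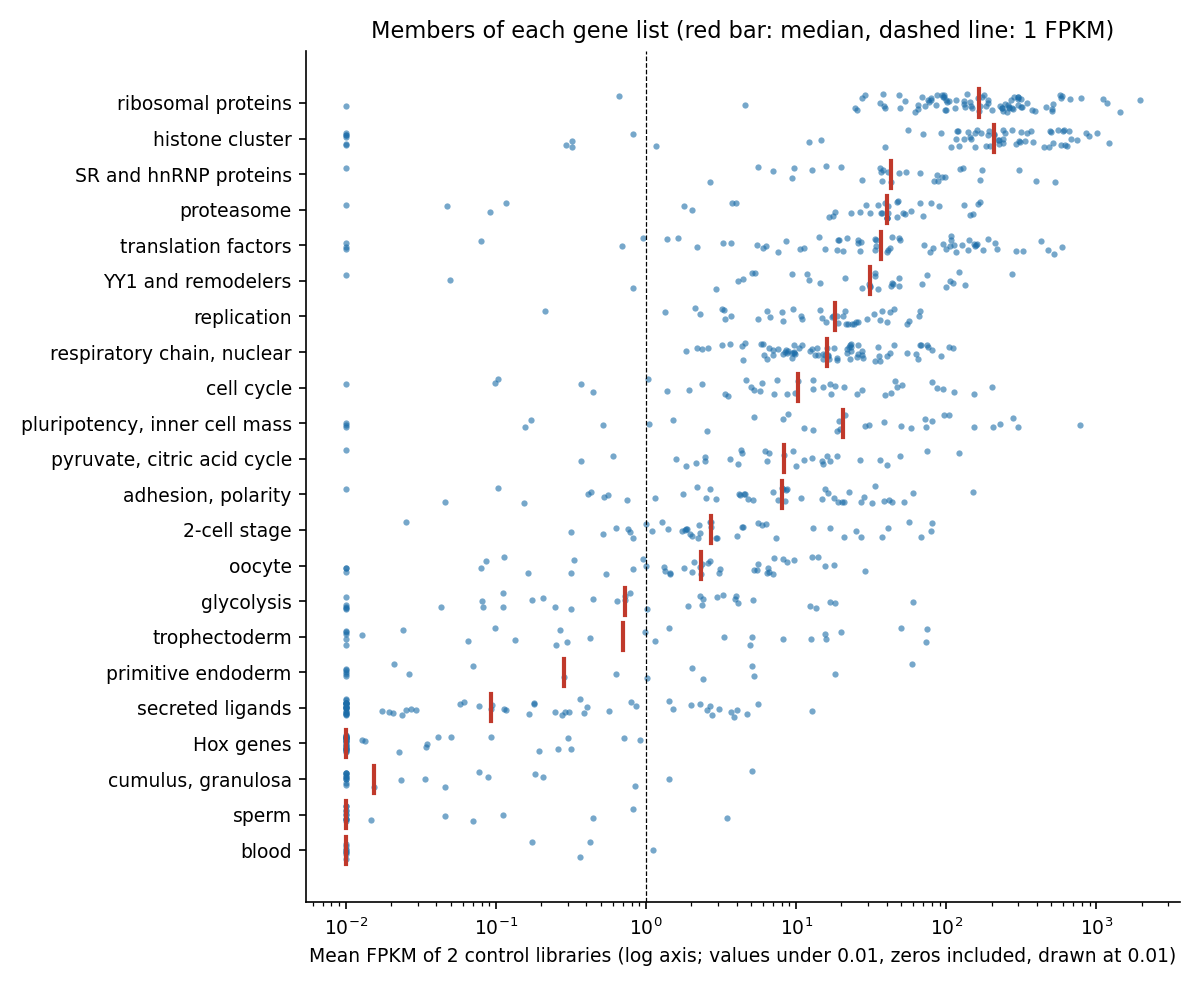
Mean FPKM over the 2 control libraries (log axis) for each member of 22 gene lists, one point per gene, with the list's median as a red bar and 1 FPKM as a dashed line. Medians run from 208 FPKM for histone cluster genes and 165 FPKM for ribosomal proteins down to 0 for sperm and blood genes, and values under 0.01 are drawn at 0.01.

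Energy metabolism was represented unevenly. Nuclear subunits of the respiratory complexes were detected in 77 of 77 cases, between 1.62 and 2.05 FPKM for Sdhc and 111 and 109.7 FPKM for Atp5a1, with a median of 16.0 FPKM. Genes of pyruvate entry and the citric acid cycle were detected in 28 of 31 cases. Pdha1, a subunit of pyruvate dehydrogenase, had 111 and 130.3 FPKM, and Mpc1, a mitochondrial pyruvate carrier, had 42.6 and 38.3 FPKM. Glycolysis and glucose transport genes were detected in 15 of 35 cases (42.9%), close to the 37.6% of all nuclear protein-coding genes, with a median of 0.727 FPKM. Pgam1 was their highest at 58.8 and 61.8 FPKM, Hk1 had 15.1 and 18.1 FPKM, and the glucose transporter Slc2a1 had 0.646 and 0.627 FPKM. Pkm, the muscle-type pyruvate kinase, stood at 2.63 and 1.96 FPKM and the phosphofructokinase Pfkl at 0.707 and 0.746 FPKM. Gapdh had 0.148 and 0.2 FPKM, and this gene has very many processed pseudogenes, so its own level is uncertain. Ldhb exceeded Ldha, at 10.5 and 14.1 FPKM against 3.19 and 1.57 FPKM. The counting of reads that match several places was not stated. Other genes of this list that have close copies are therefore uncertain too, as are the list's count and median. Of antioxidant enzymes 18 of 34 were detected (52.9%, against 37.6%), with Sod1 at 45.7 and 56.9 FPKM and Gpx1 at 51 and 50.1 FPKM.

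Genes of the dividing cell were nearly all present. Replication licensing and fork genes were detected in 41 of 42 cases with a median of 18.0 FPKM, and Gins2 was the exception at 0.206 and 0.218 FPKM. Cdt1, which loads the replicative helicase, had 68.7 and 64.6 FPKM, and its inhibitor Gmnn had 54.8 and 54.4 FPKM. Cyclins, mitotic kinases and checkpoint genes were detected in 35 of 41 cases. Cks2, a partner of cyclin-dependent kinases, had 233 and 172 FPKM, and the mitotic cyclin gene Ccnb1 had 164 and 141 FPKM. The G1 cyclins differed widely, with Ccne1 at 82.3 and 77.7 FPKM, Ccnd1 at 3.23 and 3.42 FPKM and Ccnd2 at 0.0525 and 0.152 FPKM. The inhibitor Cdkn1a was at 22.9 and 32.3 FPKM, and Cdkn1b was at 0.0638 and 0.133 FPKM. The retinoblastoma gene Rb1 lay at the threshold with 1.07 and 0.985 FPKM.

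Yy1, the factor named in the series title, stood at 77.7 and 71.2 FPKM in these control embryos, and its relative Yy2 was listed at 0. Of 33 genes for YY1, its relatives, chromatin remodelers and related complexes, 30 were detected. Among the ATPases of nucleosome remodelers, Smarca4 of the SWI/SNF family had 108 and 103 FPKM, Smarca5 of the ISWI family 102 and 96.6 FPKM, Chd4 60.8 and 77.2 FPKM and Ino80 30.8 and 36.4 FPKM. The paralogs Smarca2 and Smarca1 had 0.668 and 0.977 FPKM and 0.00475 and 0.0937 FPKM. Rad21, a cohesin subunit, was the highest of the list at 298 and 252 FPKM, and Baz1a, a partner of Smarca5, had 121 and 122 FPKM. Ctcf, which stops cohesin, had 34.3 and 35.6 FPKM. Genes of DNA methylation and demethylation had a lower median, 3.50 FPKM against 31.0 FPKM for the 33 genes above. Of these 17 genes 10 were detected (58.8%, against 37.6% of nuclear protein-coding rows), and the highest had a mean of 46.0 FPKM. The maintenance enzyme Dnmt1 had 15.3 and 17.5 FPKM, and the de novo enzymes Dnmt3b and Dnmt3a had 9.29 and 11.8 FPKM and 5.04 and 5.71 FPKM.

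Messages of genes known from the oocyte were measurable. RNA left from the oocyte and RNA made by the embryo cannot be told apart here. Of 43 oocyte transcripts that are cleared in early cleavage 29 were detected (67.4%, against 37.6% of nuclear protein-coding rows). The median was 2.32 FPKM, and none of them was above 27.2 and 30.4 FPKM, the values of Oog1. Npm2, a chaperone of sperm chromatin remodeling, had 17.9 and 17.9 FPKM, the secreted factors Gdf9 and Bmp15 had 11.5 and 14 FPKM and 5.24 and 5.95 FPKM, and Zp3 of the egg coat had 11.2 and 8.18 FPKM. Btg4, an adaptor in maternal RNA decay, had 7.25 and 9.13 FPKM. Mos, the kinase that arrests the egg, had 0.661 and 1.32 FPKM, and Figla was listed at 0. In a list of subcortical maternal complex genes and other maternal factors, 9 of 11 genes were detected (81.8%, against 37.6%). Dppa3 and Ddb1, which are not subunits of the complex, were its 2 highest, Ddb1, a DNA damage binding protein, at 151 and 169 FPKM. Zbed3 followed at 25.8 and 28.7 FPKM. Padi6 had 16.8 and 14.1 FPKM, Khdc3 13.7 and 17.5 FPKM, Nlrp5 5.08 and 5.1 FPKM, Tle6 4.23 and 3.47 FPKM and Ooep 0.815 and 1.52 FPKM. The others were Nlrp4f at 5.88 and 6.95 FPKM, Kpna7 at 1 and 1.06 FPKM and Nlrp2 at 0.687 and 0.681 FPKM.

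Of 43 genes of the 2-cell stage and of genome activation, 31 were detected (72.1%, against 37.6% of nuclear protein-coding rows), with a median of 2.70 FPKM. All 5 Tdpoz genes were detected, led by Tdpoz4 at 86.5 and 73.6 FPKM and Tdpoz5 at 62.3 and 73.9 FPKM. Sp110 had 72.9 and 84.3 FPKM and Zfp352, a marker of the 2-cell embryo, 4.07 and 1.33 FPKM. None of the 9 Zscan4 rows, a family with a sharp peak at the 2-cell stage, was detected in both libraries. Their summed level was 2.57 and 15.9 FPKM, and each of the 9 was higher in replicate 2, with Zscan4e at 0.47 and 4.1 FPKM, Zscan4b at 0.516 and 3.5 FPKM and Zscan4d at 0.537 and 1.02 FPKM. These rows are near-identical copies, so the pattern may be a single measurement. Duxf3, the row for the activator Dux, had 0.151 and 0.885 FPKM.

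Single members of the Obox and Prame-like families, known mainly from oocytes and cleavage-stage embryos, were high, while other members were low. Obox6, an oocyte and embryo homeobox gene, had 332 and 231 FPKM and Obox8 112 and 63.5 FPKM, but 10 of the 55 Obox rows were detected (18.2%, against 22.1% of all rows) and the median member had 0.174 FPKM. Pramel7, which promotes loss of DNA methylation in pluripotent cells, had 249.9 and 211 FPKM and Pramel4 179 and 228 FPKM, and 10 of 14 Prame-like rows were detected with a median of 4.39 FPKM. Among families listed after the values were seen, all 3 Trim43 genes and all 3 Khdc1 genes were detected. Their lowest members had means of 104 and 49.1 FPKM. Trim43b had 439 and 382 FPKM, Trim43a 407 and 381 FPKM, Khdc1a 314 and 270.5 FPKM and Khdc1c 298 and 295 FPKM. The metallothioneins Mt1 and Mt2, which bind zinc, had 327 and 254 FPKM and 229 and 203 FPKM. Of 412 Zfp zinc finger genes 195 were detected (47.3%, against 37.6% of nuclear protein-coding rows) with a median of 1.03 FPKM, and the highest included Zfp296 at 116 and 97.9 FPKM and Zfp978 at 107 and 107 FPKM. Of 21 Nlrp rows 11 were detected (52.4%, against 37.6%), and the highest was Nlrp14 at 7.93 and 5.14 FPKM.

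The network of pluripotency was partly in place. Of 34 pluripotency and inner cell mass genes 27 were detected (79.4%, against 37.6% of nuclear protein-coding rows), and the median was 20.4 FPKM. Fbxo15 was highest at 844 and 712 FPKM, followed by Dppa2 at 330.4 and 274 FPKM and Dppa5a at 289 and 268 FPKM. Pou5f1, which encodes OCT4, had 195 and 214 FPKM, a mean of 204 ± 13.3. The Krüppel-like factors were ordered Klf5 (232 and 222 FPKM), Klf2 (75.9 and 67.5 FPKM), Klf17 (61.2 and 38.2 FPKM) and Klf4 (26.4 and 31.4 FPKM). Esrrb had 38.6 and 38.6 FPKM, Nanog 9.74 and 6.56 FPKM and Sox2 0.127 and 0.186 FPKM, so that these partners of OCT4 covered a wide range. Fgf4, the ligand that later drives primitive endoderm, had 2.84 and 2.22 FPKM. Nodal and Foxd3 were listed at 0.

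Trophectoderm genes were detected in 13 of 28 cases (46.4%), with a median of 0.701 FPKM, and primitive endoderm genes in 6 of 17 cases (35.3%). Both shares lie near the 37.6% of all nuclear protein-coding rows. The transcription factor genes Tead4 (80.2 and 67.9 FPKM), Hand1 (91.7 and 54.1 FPKM) and Tfap2c (55.5 and 43.5 FPKM) led the trophectoderm list. Gata3 had 3.48 and 3.08 FPKM and Cdx2, the factor that fixes trophectoderm fate, 1.16 and 1.14 FPKM, while Eomes had 0.426 and 0.107 FPKM and Elf5 0.0148 and 0.0108 FPKM. The simple-epithelial keratins Krt8 and Krt18 had 11.1 and 20.7 FPKM and 4.52 and 11.7 FPKM, both higher in replicate 2. Of the primitive endoderm genes Gata6 had 60.6 and 57.4 FPKM and Gata4 25.7 and 10.6 FPKM, and Gata4 was more than 2-fold higher in replicate 1. The later factors Sox17, Sox7, Foxa2 and Hnf4a were listed at 0 in both libraries.

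**Figure D3:**
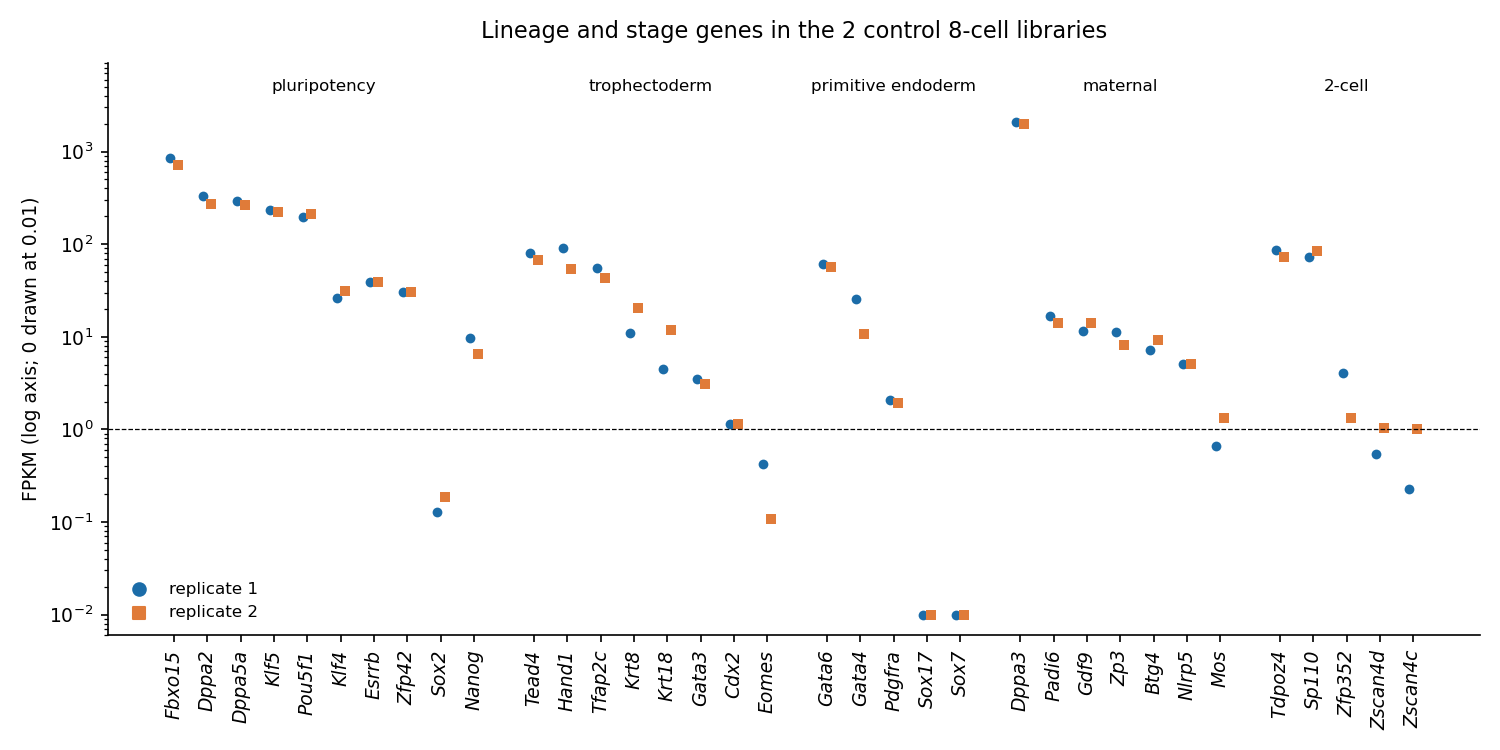
FPKM (log axis) of lineage and stage genes in replicate 1 (circles) and replicate 2 (squares), with 1 FPKM as a dashed line and values of 0 drawn at 0.01. Dppa3 stands highest, Pou5f1 and Gata6 are well above the line, Cdx2 lies on it and Sox2 lies below it in both libraries.

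Genes of compaction and polarity were detected in 37 of 47 cases (78.7%, against 37.6% of nuclear protein-coding rows). Cdh1, E-cadherin, had 41.7 and 62.1 FPKM and its cytoplasmic partners Ctnna1 and Ctnnb1 had 58.2 and 61.4 FPKM and 36.7 and 30.5 FPKM. The gap junction gene Gja1 was the highest at 137 and 166 FPKM, and the tight junction genes Tjp1 and Cldn4 had 46.9 and 40.6 FPKM and 41.2 and 41.2 FPKM. The polarity proteins were lower, with Pard6b at 8.85 and 8.62 FPKM, Prkci at 4.28 and 3.99 FPKM and Pard3 at 2.4 and 3.45 FPKM. N-cadherin, Cdh2, stood at 0.263 and 0.0434 FPKM. In the Hippo pathway, which reads cell position in the embryo, 21 of 29 genes were detected (72.4%, against 37.6%). Yap1 had 20.1 and 19.5 FPKM, Wwtr1 (TAZ) 17.1 and 13.1 FPKM, Nf2 24.6 and 27.8 FPKM and Amot 11.6 and 20.4 FPKM. The kinases Lats1 and Lats2 had 4.95 and 4.89 FPKM and 5.71 and 5.99 FPKM. Of the pumps and channels that later fill the blastocoel 7 of 17 were detected (41.2%, near the 37.6% of nuclear protein-coding rows), with the water channel gene Aqp3 at 17.8 and 21 FPKM and Atp1b1, a sodium pump beta subunit, at 1.36 and 2.56 FPKM.

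Of 61 ligand genes 13 were detected (21.3%), against 37.6% of all nuclear protein-coding rows, and the 2 highest were the oocyte factors Gdf9 and Bmp15. Pdgfa followed with 5.69 and 3.76 FPKM and the Notch ligand Jag2 with 4.59 and 3.48 FPKM. Of 48 receptor genes 22 were detected (45.8%, near that share), led by Igf2r at 81.4 and 110.1 FPKM, an imprinted gene whose product clears the growth factor IGF2, and by Itgb1, an integrin, at 13.3 and 19.4 FPKM. Fgfr2 and Fgfr1, receptors that answer FGF4 in the blastocyst, had 4.98 and 4.84 FPKM and 3.95 and 5.05 FPKM. Of 48 imprinted genes 16 were detected (33.3%, also near it), with Snrpn at 37.6 and 31.9 FPKM and Grb10 at 1.58 and 1.81 FPKM.

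Genes of the sex chromosomes differed between the libraries. Xist, the RNA that coats the inactive X chromosome of females, had 7.12 and 25.5 FPKM, and Rlim, an X-linked activator of Xist, had 41.6 and 53.6 FPKM. The Y-linked genes Ddx3y, Uba1y and Eif2s3y had 4.6 and 2.13 FPKM, 2.72 and 2.09 FPKM and 1.66 and 1.09 FPKM. Xist was thus higher in replicate 2 and these 3 Y-linked genes were higher in replicate 1. The labels give no sex, and both libraries held both kinds of RNA. By chromosome, 27.8% of 921 X-linked protein-coding genes and 1.98% of 252 on the Y were detected, against 29.3% on chromosome 7 to 48.5% on chromosome 12 among the autosomes. Chromosome 13, where the large histone cluster lies, held 11.7% of the protein-coding FPKM.

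Stress and death genes were present at moderate levels. Of 27 genes of the integrated stress and unfolded protein responses 17 were detected (63%, against 37.6% of nuclear protein-coding rows). The cochaperone Dnajb9 had 208 and 205 FPKM and Atf4 had 78.6 and 79.2 FPKM. Among those 17, 16 were higher in replicate 2, with a median log2 ratio of -0.32, against -0.06 over all rows with a mean of at least 1 FPKM. Hspa5, the chaperone BiP, had 21.2 and 41.5 FPKM, and Ddit3, which encodes CHOP, 1.46 and 2.9 FPKM. The immediate early genes Fos and Atf3 were listed at 0. Of 31 genes for p53, its targets and the BCL2 family 23 were detected (74.2%, against the same 37.6%). The survival gene Mcl1 had 104 and 97.9 FPKM, Trp53 3.96 and 3.78 FPKM and Bax 11.5 and 15 FPKM. Of 32 germ line and piRNA genes 16 were detected (50%, against 37.6%). After Dppa3 the highest were Tex19.1 at 27.4 and 41.8 FPKM, Sycp1 at 13 and 10.5 FPKM and Piwil2 at 10.9 and 11.1 FPKM.

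Families of differentiated cells were close to silent. Of 1111 olfactory receptors 3 were detected (0.27%), and Olfr1459 stood out at 42.5 and 30.9 FPKM, with Olfr482 next at 2.9 and 1.38 FPKM. None of 328 vomeronasal receptors, 653 immunoglobulin and T cell receptor segments, 39 Hox genes and 57 keratin-associated protein genes was detected. The highest Hox gene was Hoxb9 at 0.937 and 0.878 FPKM. Of 120 cytochromes P450 6 were detected, with Cyp2s1 at 19.9 and 21.3 FPKM, and of 82 defensin rows only the pseudogene Defa-ps7 was, at 6.4 and 5.88 FPKM. One of 69 chemokine and interleukin genes was detected, Il17b at 2.43 and 1.06 FPKM.

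Markers of other cells that embryo collection could carry along were low. Of 21 cumulus and granulosa cell genes Amhr2 alone was detected, at 5.35 and 4.74 FPKM, the list summed to 8.91 and 7.09 FPKM, and Fshr, Lhcgr, Has2 and Ptx3 were listed at 0. Of 17 sperm genes Odf2 alone was detected, at 2.8 and 4.13 FPKM, with a sum of 4.39 and 5.54 FPKM, and Prm1 and Tnp1 were listed at 0. No blood cell gene of 12 was detected (sum of 1.59 and 2.52 FPKM), and Ptprc and Hbb-bs were listed at 0. Of 13 fibroblast genes Fn1 alone was detected, at 1.43 and 1.38 FPKM, and the sum was 1.76 and 1.87 FPKM.

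The 2 libraries ranked genes alike. Over the 11955 rows with a mean of at least 1 FPKM, log2(FPKM + 1) had a Pearson coefficient of 0.966 and a Spearman coefficient of 0.940 across genes, which share 2 libraries and are no independent replicates. The median absolute log2 difference was 0.23 and 90.2% of the rows were within 2-fold. By class the Pearson coefficient was 0.981 for nuclear protein-coding genes, 0.971 for pseudogenes, 0.873 for lncRNAs and 0.806 for small nucleolar and Cajal body RNAs. As a check for a library deposited more than once, the recovered counts gave a chi-square of 49.8 per degree of freedom over 20050 rows. It covers counting error only and takes amplified fragments as independent, so it says nothing of the source of the spread. Precision grew with depth. With 0.5 fragments added to each count, rows above 0 with fewer than 30 fragments over both libraries had a median absolute log2 ratio of 1.72, those with at least 100 and fewer than 300 had 0.54, and those with 10000 or more had 0.15.

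**Figure D4:**
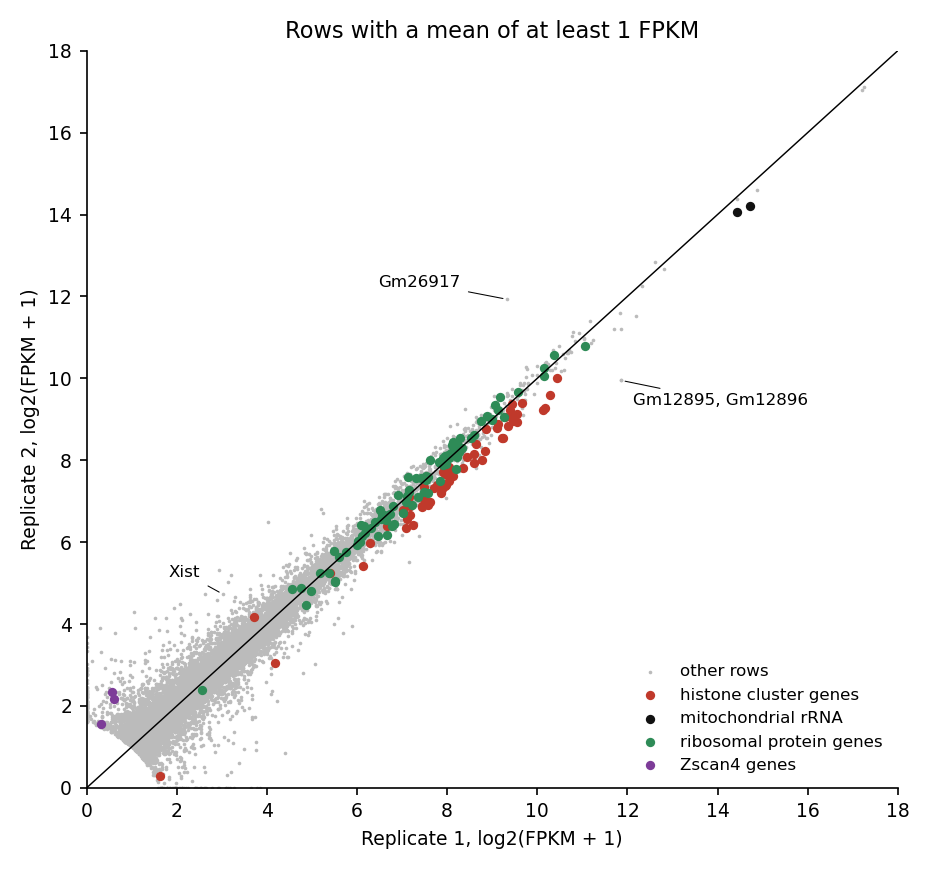
log2(FPKM + 1) in replicate 1 (x axis) against replicate 2 (y axis) for the 11955 rows with a mean of at least 1 FPKM, with the line of equal values. Ribosomal protein genes follow the line, 58 of the 60 histone cluster genes lie on the side of replicate 1, the 3 Zscan4 rows lie on the side of replicate 2, and Gm26917, Gm12895, Gm12896 and Xist stand off it.

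More than a 2-fold difference was found in 1176 of the 11955 rows (9.84%), 454 of them higher in replicate 1 (3.8%) and 722 higher in replicate 2 (6.04%). Of the nuclear protein-coding genes 355 of 8464 differed that much (4.19%), and of the 784 rows with a mean of at least 100 FPKM 4 did. Those 4 all carry predicted names. Gm26917 had 643 and 3902 FPKM and took 0.214% and 1.30% of the fragments, Gm12895 had 3711 and 989 FPKM, Gm12896 had 3712 and 989 FPKM, and Gm44122, named after its values were seen, had 166 and 70.1 FPKM. Among protein-coding genes whose mean reached 10 FPKM, the largest ratios toward replicate 1 were those of Ccnb1ip1, a ubiquitin ligase of meiosis, at 16.1 and 5.89 FPKM, of Hes1, a target of Notch signalling, at 21.1 and 8.11 FPKM, and of Gata4. Toward replicate 2 they were those of Ppp1r14a, a phosphatase inhibitor, at 8.18 and 35.9 FPKM, Fabp3, a fatty acid binding protein of the trophectoderm list, at 11.4 and 28.1 FPKM, and Akap12, a kinase-anchoring protein, at 30.4 and 71.7 FPKM. Each rests on 1 library against 1 library. None of 77 respiratory chain genes, 35 proteasome genes, 60 translation factors and 41 replication genes that passed the filter of 1 FPKM differed by more than 2-fold.

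Promoter composition differed with level across genes. A promoter of 300 bases was found for 17095 of 21266 nuclear protein-coding rows (80.4%). The observed over expected ratio of CpG, near 1 in unmethylated CpG islands, had a median of 0.183 in genes at 0 FPKM, 0.520 in those under 1 FPKM, 0.770 at 1 to 10 FPKM, 0.840 at 10 to 100 FPKM and 0.852 at 100 FPKM and more. Spearman's rho of level with this ratio was 0.593 across the 17095 genes, given as a description since neighbouring and duplicated genes share sequence. TATAAA followed another course, in 9.23% of genes at 0 FPKM, 1.26% at 10 to 100 FPKM and 7.33% of the 300 genes at 100 FPKM and more. Of the histone cluster rows 53 had a mean of at least 100 FPKM, and TATAAA stood in 29.5% of the family's 61 promoters. The motif shares of the highest class were not counted without this family. GGGCGG, in the 250 bases before the start, went from 15.1% at 0 FPKM to 62.3% at 10 to 100 FPKM and was at 54.7% at 100 FPKM and more. The core ATGGCGG of the YY1 motif, on either strand in the 300 bases, stood in 0.854% of promoters at 0 FPKM (35 of 4097), 3.80% under 1 FPKM, 8.83% at 1 to 10 FPKM, 11.5% at 10 to 100 FPKM (274 of 2387) and 6.67% at 100 FPKM and more. Its share over all 17095 of these genes was 5.46%. The motif holds a CpG itself, and its course apart from CpG content was not tested. By list, the median CpG ratio was 0.873 for ribosomal protein genes, 0.746 for histone cluster genes, both abundant families, and in lists with median levels of 2.32 to 4.39 FPKM it was 0.207 for oocyte genes, 0.140 for 2-cell genes and 0.125 for Prame-like genes, beside 0.106 for olfactory receptors.

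**Figure D5:**
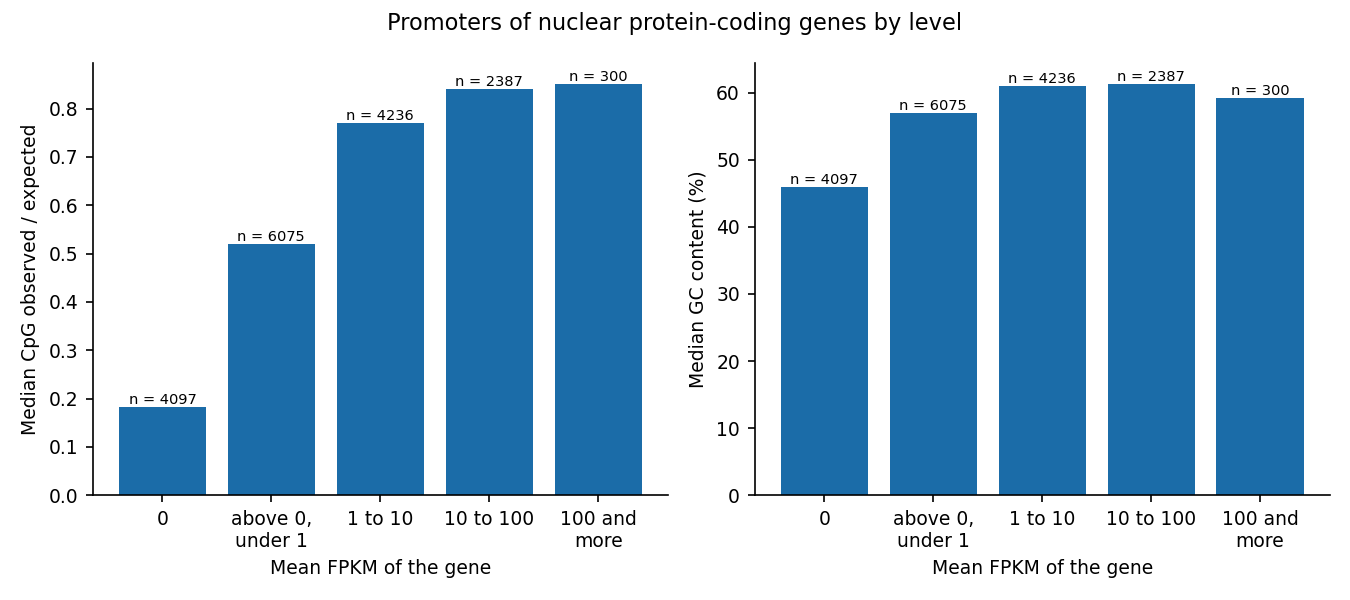
Median CpG observed over expected ratio (left) and median GC content in percent (right) of 300-base promoters, for nuclear protein-coding genes grouped by mean FPKM of the 2 control libraries, with the number of genes above each bar. The CpG ratio rises from 0.183 at 0 FPKM to 0.852 at 100 FPKM and more.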

How the data were processed

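RNA was measured in 2 control 8-cell libraries, grouped by their sample titles. The table holds FPKM as deposited by the authors, and its other 2 columns (knockdown libraries) were used only to find gene lengths. Per the submitters' processing notes, the tools of the series, not assigned to assays, were bedtools, Bowtie2 2.4.3, featureCounts, HISAT2 2.2.1, R 4.0.3, SAMtools 1.4.1 and Trim Galore 0.6.7, and the build was mm10. Annotation release, strand setting and handling of multi-mapping reads: not given in the sources used here. Genes with close copies, overlaps or an antisense gene are therefore uncertain. Of the 49585 rows 93 symbols stand on more than 1 row.

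Fragment totals were recovered from the steps of the FPKM of short noncoding genes, and each gene's length as the smallest whole length that makes its counts whole in all columns. All 23329 and 23802 values above 0 came out within 0.02 of a whole number, and the recovered counts sum to 98.5% of each total. On simulated data 4 of 4 totals and 96.5% of 3723 genes came out exact, and the remaining genes were understated by a common factor. RNA classes are RefSeq biotypes of GRCm38.p6, matched for 34560 rows by symbol and 1022 by a unique synonym. The other 14003 rows were classed by name, among them Rn7s6. Promoters of 300 bases are RefSeq's.

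No test between groups was made, since there is 1 group, and the chi-square per degree of freedom of the recovered counts, given with no p, served only as a check for repeated libraries. Alternatives were other thresholds, filters and pseudocounts, fragments in place of FPKM, subsets of classes and each library alone. Named genes were taken from the 30 highest rows with a proper name, the 3 highest predicted rows, the 10 with most fragments, the 5 highest of each list and class, all members of lists of up to 15, up to 3 undetected members per list, and the 10 largest ratios each way among rows of at least 10 FPKM. Genes named outside that rule were named after their values were seen. The short YY1 motif replaced a longer form after its values were seen. The members, the 68 lists and the measures were chosen with earlier results of these data known, 8 lists were added after their values were seen, and the name pattern of the immunoglobulin list was corrected then. Protein sequences were not used here. Python 3.11.15, pandas 2.3.3, NumPy 2.4.6, SciPy 1.17.1 and matplotlib 3.10.9 were used.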

Additional observations from a re-analysis of the deposited data

How the results depend on the processing

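Genes detected numbered 10939 at 1 FPKM in both libraries, 17066 at 0.1 FPKM, 6200 at 5 FPKM and 4354 at 10 FPKM. The Pearson coefficient of 0.966 became 0.931 with a pseudocount of 0.1, 0.984 with no filter and 0.981 with protein-coding genes alone. The 100 highest rows held 62.8% of FPKM, 31.8% of fragments, 71.5% with predicted names left out and 42.0% with 7SL RNA left out, the last chosen after seeing the data. The 7SL share of 36.2% was 8.88% by fragments, and the protein-coding share of 25.6% was 68.4%. Rows differing by more than 2-fold numbered 1176, 222 with a filter of 5 FPKM, 80 with a filter of 10 FPKM and 607 with a pseudocount of 1. Single libraries gave 11785 to 12061 genes, 61.3 to 64.3% for the 100 highest rows, 35.6 to 36.9% for 7SL RNA and 24.9 to 26.3% for protein-coding genes. With 2 libraries each of these shares lies within 1 SD of the mean by construction, and the gene counts of single libraries are higher because the level is asked of 1 library, not of both. The fragment scale weighs length differently by construction, and it moved 70 of 77 shares by more than 1 SD. No paired analysis was possible because there is 1 group and no test. Depth limits the low rows most, and protein features were not run.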
